A study of Mus musculus with 2 samples.

Results

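The genes of the cytosolic ribosomal proteins were examined for binding of Tcf3 in E14, a line of mouse embryonic stem cells that was grown without feeder cells. The genes were taken by name from the annotation of the array probes, as Rpl or Rps followed by a number, alone or joined to the name of a neighbouring gene. Of 17097 genes named on the arrays, 88 met this rule. Of these, 77 encode a ribosomal protein or a close paralog of one: 42 belong to the large 60S subunit, 30 to the small 40S subunit, and 5 are paralogs (Rpl22l1, Rpl36al, Rpl3l, Rpl7l1 and Rps27l). The other 11 genes share only the name, as 10 of them encode kinases of the S6 kinase families and 1 encodes the Rps19-binding protein Rps19bp1. All results on ribosomal protein genes refer to the 77.

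Ribosomal proteins surround and fold the ribosomal RNA, and the cytosolic set is made in near-equal amounts and in large quantity in every growing cell. Their transcripts belong to the TOP class, which begins with a run of pyrimidines that the growth-sensing mTOR pathway uses to control translation. Tcf3, whose current symbol is Tcf7l1, belongs to the Tcf/Lef family of sequence-specific factors; in mouse embryonic stem cells it occupies developmental and pluripotency genes, mostly as a repressor, and Wnt signalling relieves this repression. Ribosomal protein genes are a group of constantly active genes beside which such occupancy can be set.

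DNA immunoprecipitated from cross-linked chromatin was labelled with Cy5 and input DNA with Cy3. The pair was hybridised to each of 2 promoter arrays that hold different probes, 237195 on array 1 and 237185 on array 2. The labels name several antibodies, and Tcf3 is taken from the sample titles. Each array was hybridised 1 time, and no control immunoprecipitation was analysed here, so no test between samples exists, and the precision is limited by the number of arrays. On array 1, 69.1% of Cy5 spots (immunoprecipitate) and 97.8% of Cy3 spots (input) stood well above background, and on array 2, 48.1% and 92.0%. Of the 77 genes, 35 lay on array 1 and 42 on array 2, on 19 chromosomes, with 5 to 51 probes a gene (median 24) and 1847 probes in all. In 26 genes some probes also carried the name of a neighbouring gene. All values below are levels on the scale of log2 of immunoprecipitate over input, centred on the median of each array, so that 0 is the typical probe and 1 is a 2-fold excess of immunoprecipitate. A set consists of 2 or 3 adjacent probes, a probe and those next to it on either side, and each gene is described by the mean of its highest set, with the SD over the probes of that set. That SD describes how the probes of a set differ and says nothing of the error between experiments. A gene was called bound when a set mean had an upper-tail normal probability under 0.001 against the scatter of its array and its single probes were high as well.

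The probes of the highest sets of Rpl7, Rpl21 and Rpl28 are shown first, because these genes were called bound under each of 3 treatments of the spots described below. Probes are numbered by position along the chromosome. The core letters of Tcf/Lef sites (CTTTG followed by AA, TT, AT or TA) were searched on both strands, and capitals would mark them. No probe shown holds one.
Rpl7 probe 1: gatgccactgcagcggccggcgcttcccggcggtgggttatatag
Rpl7 probe 2: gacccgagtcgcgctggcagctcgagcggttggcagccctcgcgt
Rpl7 probe 3: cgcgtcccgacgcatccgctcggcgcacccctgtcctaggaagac
Rpl21 probe 1: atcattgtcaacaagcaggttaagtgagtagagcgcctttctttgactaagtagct
Rpl21 probe 2: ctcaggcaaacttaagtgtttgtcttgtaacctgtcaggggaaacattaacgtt
Rpl21 probe 3: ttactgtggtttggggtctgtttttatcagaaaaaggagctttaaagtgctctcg
Rpl28 probe 1: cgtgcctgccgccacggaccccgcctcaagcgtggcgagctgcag
Rpl28 probe 2: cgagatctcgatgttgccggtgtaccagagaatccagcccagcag
Rpl28 probe 3: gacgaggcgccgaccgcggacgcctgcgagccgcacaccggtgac

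Few ribosomal protein genes were called bound. With all spots, 7 of 77 genes (9.09%) were called, against 15.4% of all genes. Among them were Rpl7, Rpl18, Rpl21 and Rpl28 of the 60S subunit and the paralog Rps27l, which is known as a p53-inducible relative of Rps27. The median over the 77 genes of the highest set mean was 0.86, against 1.15 over all genes, and 33 of the 77 (42.9%) had a highest set mean over 1, against 60.0% of all genes. The arrays differed in this. On array 1, 6 of 35 ribosomal protein genes (17.1%) were called, against 25.2% of its genes, and on array 2 it was 1 of 42 (2.38%), against 5.51%. The subunits gave close shares, with 4 of 42 genes of the 60S subunit (median of the highest set mean 0.94) and 2 of 30 genes of the 40S subunit (0.84).

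Many Cy5 spots were too dim to measure, and the scanner software then wrote a floor value in place of a signal. Such floor values made up 29.4% of the probes of ribosomal protein genes, against 41.2% of the probes of all genes, and 34 of the 77 highest sets held at least 1, with 10 sets made of floor values alone. When only spots measured in both channels were kept, 4 of 77 ribosomal protein genes (5.19%) were called, against 15.5% of all genes. When the dependence of the ratio on probe GC content was also subtracted, as the GC trend, 6 of 77 (7.79%) were called, against 14.8%. Rpl7, Rpl21 and Rpl28 were among the genes called under all 3 treatments, and 9 of 77 genes were called under at least 1, against 26% of all genes. The count depended on the background correction: with the normexp method, which models signal and background together, 36 of 77 genes (46.8%) were called, against 54.3% of all genes.

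**Figure D1:**
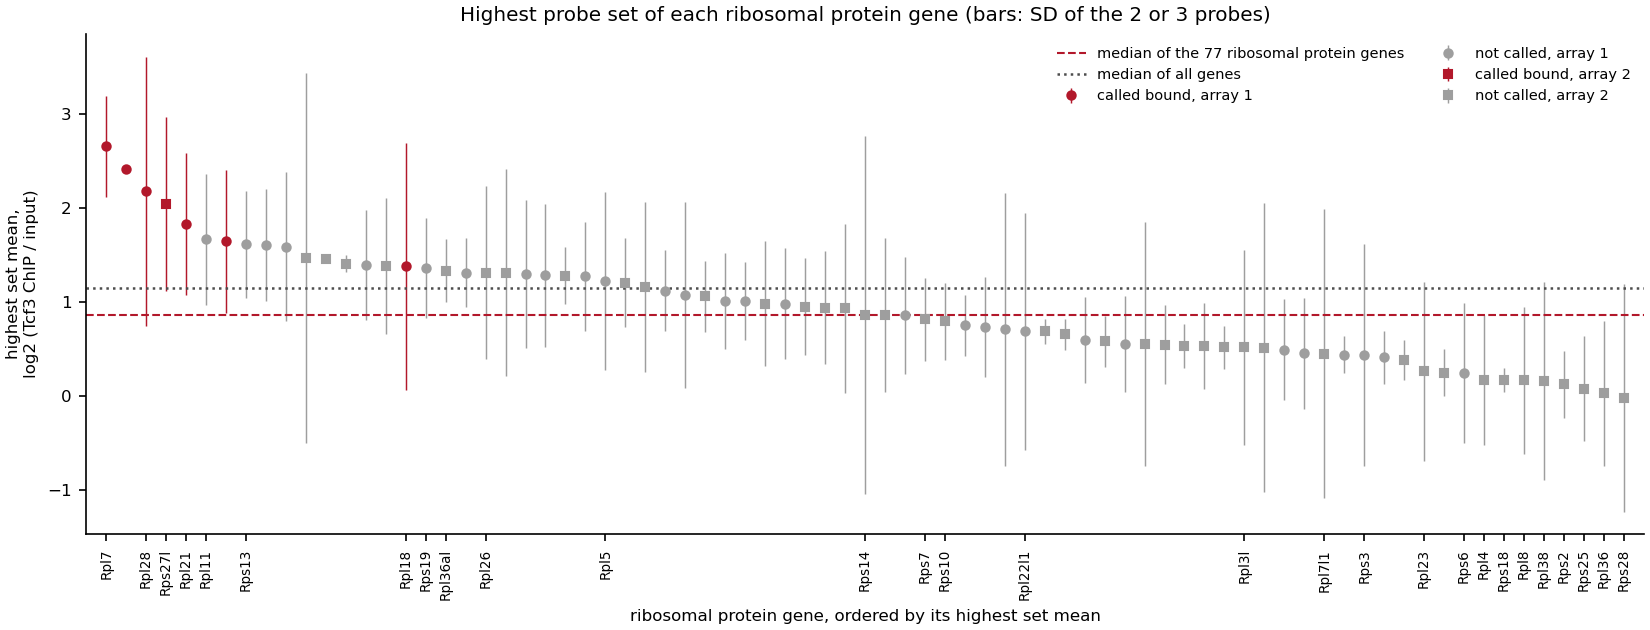
Highest set mean of each of the 77 ribosomal protein genes on the scale of log2 of Tcf3 immunoprecipitate over input, ordered from high to low, with all spots; bars are the SD of the 2 or 3 probes of the set, circles lie on array 1 and squares on array 2, red marks genes called bound, and names are given for genes described in the text. The values run between 2.65 for Rpl7 and -0.02 for Rps28, and the median of 0.86 lies under the median of 1.15 of all genes.

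Rpl7, a 60S protein, had the highest set of the group with all spots. Its probes 1 to 3 shown above reached 3.22, 2.15 and 2.59, which averages 2.65 ± 0.54 (SD, 3 probes) and is a 6.29-fold excess. The set spans 16294005 to 16294303 on chromosome 1, in the coordinates of the array annotation, for which the sources used here give no genome build. All 3 probes were called. The other 21 probes of the gene lay at 1.50 or lower, and the median over its 24 probes was -0.31. Of the 24 probes 6 lay above 1, the 3 of the set among them. Of the 24 probes, 8 carried the joint name of Rpl7 and Rdh10, a gene of retinoid metabolism. The GC content of the set averaged 70.4%, and with measured spots and the GC trend subtracted the highest set mean of Rpl7 was 1.36, still called.

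Rpl21, a 60S protein, was called on probes 2 and 3 at 2.23 and 2.31, next to probe 1 at 0.96 (set mean 1.83 ± 0.75, SD, 3 probes; chromosome 5, 145729486 to 145729823). All 3 were measured in both channels. Its GC content was 40.6%, and the set mean was 2.16 with measured spots once the GC trend had been removed. The median of its 30 probes was -0.24.

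Rpl28, a 60S protein, was called on 1 probe, probe 3, at 3.83, with probes 1 and 2 at 1.31 and 1.40 (set mean 2.18 ± 1.43, SD, 3 probes; chromosome 7, 4363382 to 4363889). This highest set was centred on probe 2. The call came from the set centred on probe 3, which had a mean of 2.16. The transcription start of Rpl28 could be placed on the array through probes that match its RefSeq promoter, and the called probe lay at -3456 bp from it. The same probe lay 51 bp downstream of the placed start of Tmem238, a gene of a transmembrane protein. Its GC content was 77.8%, and its value was 2.21 after subtraction of the GC trend from measured spots, with a set mean of 1.32. The median of the 30 probes of Rpl28 was -0.39.

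**Figure D2:**
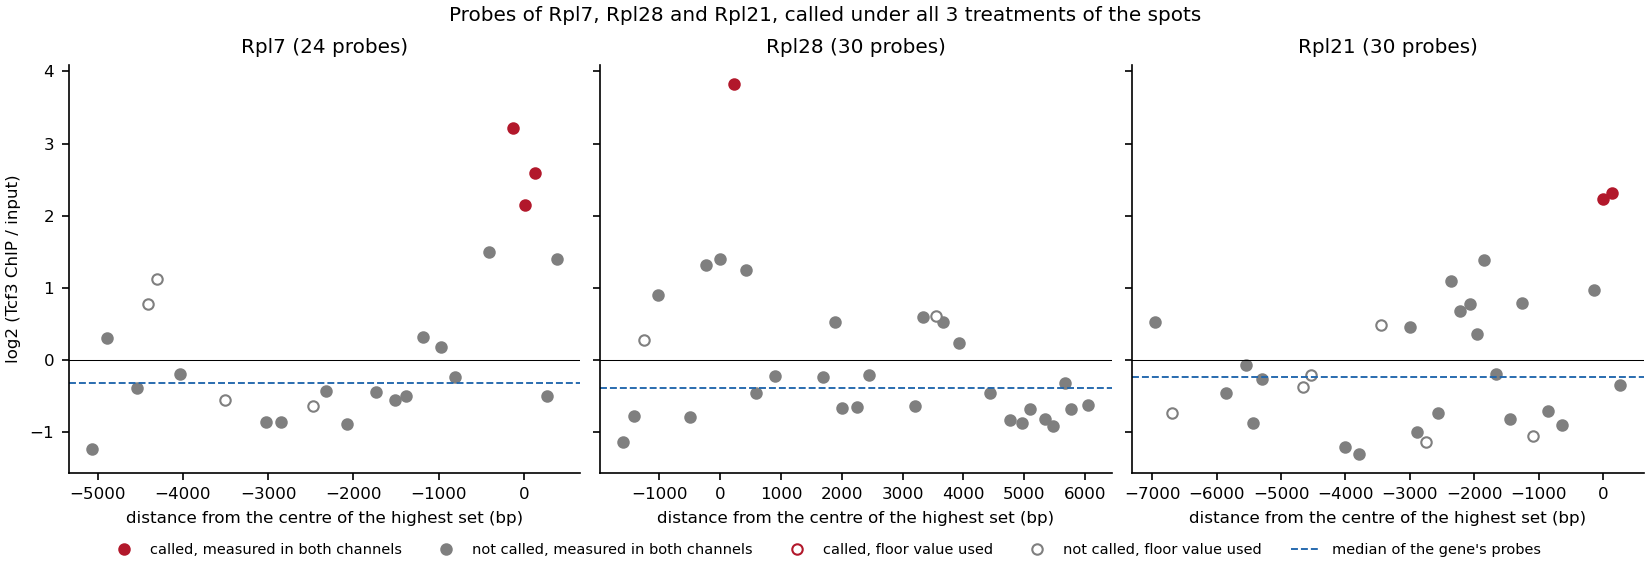
Probe values of Rpl7, Rpl28 and Rpl21 on the scale of log2 of Tcf3 immunoprecipitate over input, against distance in bp from the centre of the highest set of each gene, with all spots; red points were called, open points used a floor value in at least 1 channel, and the dashed line is the median of the gene's probes. In each gene 1 to 3 probes stand above 2 while the median lies between -0.39 and -0.24.

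The sets of Rps27l and Rpl18, also called with all spots, held floor values. Rps27l, the one called gene of array 2, had 1 called probe at 3.10 beside 2 floor values at 1.43 and 1.58 (set mean 2.04 ± 0.92, SD, 3 probes), 2216.5 bp downstream of its start. That set was centred on a floor value, and the set centred on the called probe had a mean of 1.97. The highest set mean of Rps27l was 0.65 with measured spots, not called. Rpl18, a 60S protein, was the only one of the 77 whose probes lay on more than 1 chromosome. RefSeq places the gene on chromosome 7, where its 13 probes had a median of -0.43, a highest set mean of 0.63 and 0 called probes. Its called probe, a floor value, was among 12 probes on chromosome 2 (median 0.48, highest set mean 1.38). Of the 3 treatments, Rpl5 and Rps19 were called only in the one that kept measured spots and removed the GC trend, at set means of 1.65 and 1.66. Rpl5 is a 60S protein that binds Mdm2 together with Rpl11 and carries the 5S RNA, and RPS19 is the gene most often mutated in Diamond-Blackfan anaemia of humans. The called probe of Rps19 lay at -4577 bp from its start.

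The ribosomal proteins listed for known roles outside the ribosome or in disease lay on both sides of the group median of 0.86. Rpl5 and Rps19, described above, had highest set means of 1.22 and 1.36 with all spots. Rps6, the 40S protein phosphorylated by S6 kinase, had a highest set mean of 0.24 with all spots, and Rps3, a 40S protein that also takes part in DNA repair, had 0.43. Rpl23 and Rpl38 of the 60S subunit had 0.26 and 0.16. Rps14, the 40S protein whose human gene lies in the region lost in 5q- syndrome, had 0.86, and its 2 probes differed by an SD of 1.90. Rpl26, which is known to regulate translation of p53, had 1.31, and Rpl11, the partner of Rpl5, had 1.67 from 2 floor values. These last 7 genes were not called under any of the 3 treatments, while Rpl11 was called at 1.91 with the GC trend subtracted from all spots. Of the paralogs, those not called under the 3 treatments were Rpl36al (1.34), Rpl22l1 (0.69), Rpl3l (0.52) and Rpl7l1 (0.45).

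At the low end stood Rps28 at -0.02, Rpl36 at 0.03, Rps25 at 0.08, Rps2 at 0.13, Rpl38 at 0.16, and Rps18, Rpl8 and Rpl4 at 0.17 each. All 8 lay on array 2, and 7 of the 8 highest genes lay on array 1. Rps13, a 40S protein among the 8 highest at 1.61, had a highest set of 3 floor values and was not called. Rps28 had 6 probes and Rps2 had 10, which gave few sets from which a highest could come. Over the 77 genes the median number of probes was 24, against 28 over all genes.

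Across whole genes the ratio was low. The median over the 1847 probes of ribosomal protein genes was -0.24, against 0.00 over the probes of all genes. Taken gene by gene, the median probe lay above 0 in 11 of 77 ribosomal protein genes (14.3%), against 44.8% of all genes. It ranged between -0.84 for Rpl8 and 0.46 for Rpl36a, a gene of the X chromosome. Both arrays showed this: the median probe lay above 0 in 4 of 35 genes (11.4%) on array 1, against 45.3% of its genes, and in 7 of 42 genes (16.7%) on array 2, against 44.3%. With measured spots and the GC trend subtracted, it lay above 0 in 23 of 77 genes (29.9%), against 52.5% of all genes. The median GC content of the probes was 40.7% in ribosomal protein genes and 40.4% in all genes.

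**Figure D3:**
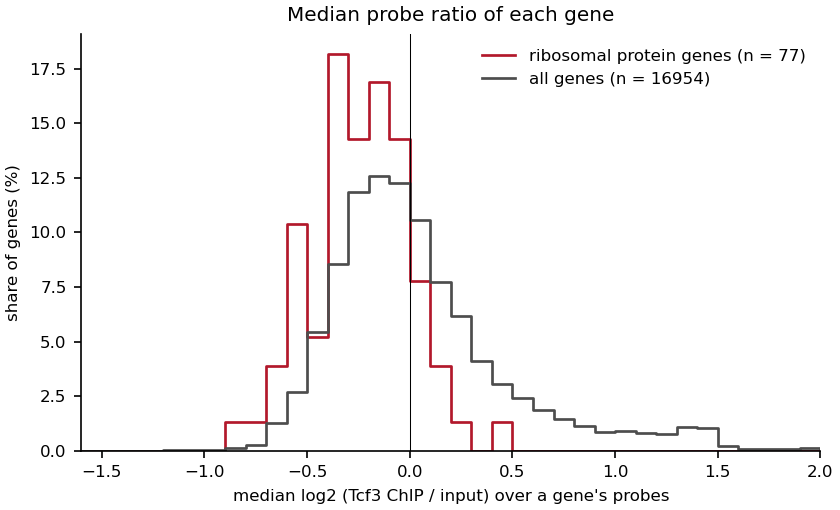
Share of genes, in percent, by the median over a gene's probes of log2 of Tcf3 immunoprecipitate over input, in steps of 0.1, for the 77 ribosomal protein genes (red) and all 16954 genes with a set (grey). The ribosomal protein genes centre on -0.23 and all genes on -0.04, and the right tail of all genes above 0.5 holds no ribosomal protein gene.

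The start of transcription could be placed for 53 of the 77 genes, through probes identical to a stretch of the gene's RefSeq promoter. Around the start, ribosomal protein genes lay slightly below all genes with a placed start. The median probe was 0.02 in the 500 bp before the start, against 0.14 in all genes with a placed start, and 0.19 in the 500 bp after it, against 0.27. Further away they were lower in most windows, on both sides. Upstream, the median was -0.31 at positions -1000 to -500 bp from the start, against -0.12 in all genes, and -0.35 at -3000 to -2500 bp, against 0.05. The order was the opposite at -2000 to -1500 bp, with 0.10 against -0.01, and at -5000 to -4500 bp, with 0.33 against 0.04. It was also the opposite at -4500 to -4000 bp, with 0.29 against 0.06. With measured spots and the GC trend subtracted, it was the opposite at -5000 to -4500 bp (0.40 against 0.03). So it was at -2000 to -1500 bp (0.14 against -0.002) and at -1500 to -1000 bp (0.10 against -0.05). In the other upstream windows shown beyond 500 bp, ribosomal protein genes were lower under this treatment. Downstream, the median was -0.45 between 500 and 1000 bp after the start, against -0.13 in all genes. It was -0.59 between 1000 and 1500 bp, against -0.12, and -0.53 between 1500 and 2000 bp, against -0.09. These 3 windows held 120, 103 and 107 probes of ribosomal protein genes, and neighbouring probes of a gene share their DNA fragments. Floor values made up 27.5%, 31.1% and 26.2% of them, against 30.0%, 42.1% and 44.4% in all genes. With measured spots and the GC trend subtracted, the medians in these windows were -0.23, -0.35 and -0.37, against -0.07, -0.08 and -0.06. With all spots, no probe of a ribosomal protein gene was called between 500 bp before and 2000 bp after a placed start. The same held with measured spots and the GC trend subtracted. Over all genes with all spots, 1.94% of probes were called in the 500 bp before the start and 3.07% in the 500 bp after. In the 3 windows between 500 and 2000 bp the share was 1.16%, 1.11% and 1.11%. With measured spots and the GC trend subtracted, the shares of all genes were 1.15%, 1.36%, 1.19%, 1.22% and 1.56% in the same order. Between 2000 and 2500 bp after the start, 1.05% of 95 probes of ribosomal protein genes were called with all spots, against 0.98% in all genes. The called probe there was that of Rps27l. With measured spots and the GC trend subtracted, the share in this window was 0%, against 1.28%. With all spots, 117 and 135 probes of ribosomal protein genes lay in the 500 bp before and after the start. The starts of some called genes, Rpl7 and Rpl21 among them, were not placed, so their called probes are not part of these counts.

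**Figure D4:**
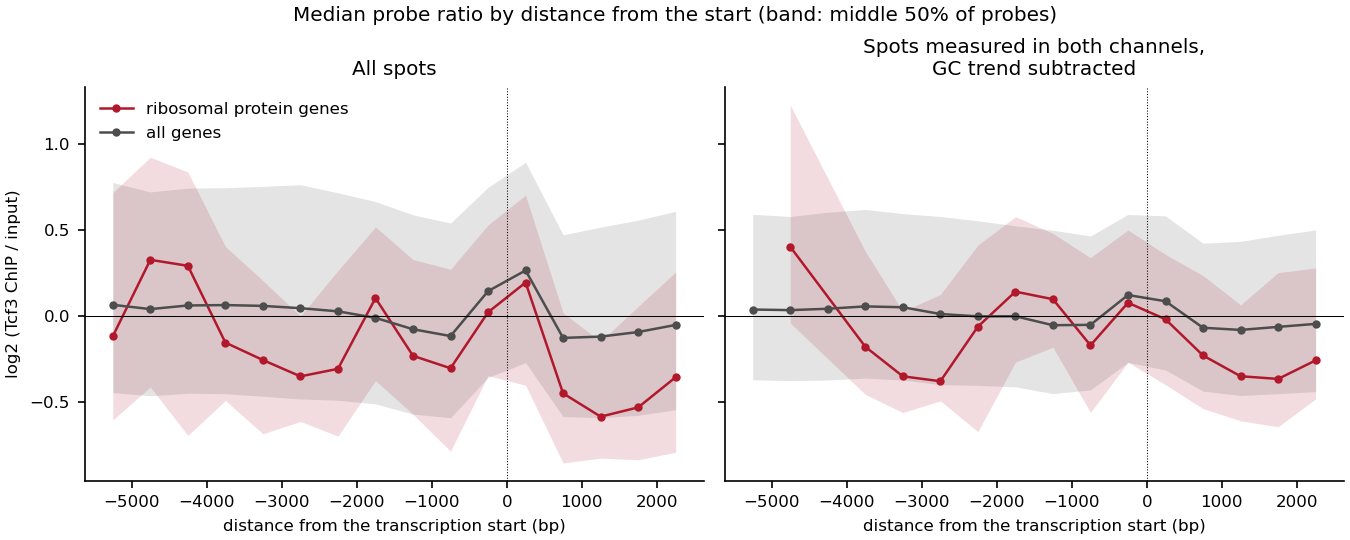
Median log2 of Tcf3 immunoprecipitate over input in windows of 500 bp against distance in bp from the transcription start, for ribosomal protein genes (red) and all genes (grey); bands hold the middle 50% of probes, windows with under 20 probes are left out, the left panel uses all spots and the right one measured spots with the GC trend subtracted. With all spots both curves stand higher next to the start than in the adjoining windows on either side, although the red one is higher still at -5000 to -4000 bp. The red one lies under the grey one between 500 and 2500 bp after the start, at -0.59 against -0.12 in the window from 1000 to 1500 bp with all spots.

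The lower downstream ratio was present in most single genes. In 52 genes with at least 2 probes in each part, the median between 500 and 2500 bp after the start was -0.53, and within 500 bp of the start it was 0.13. The downstream part was lower than the start in 42 of 52 ribosomal protein genes (80.8%), against 67.2% of all genes, and the median difference, downstream minus start, was -0.63, against -0.30 in all genes. On array 1 the downstream part was lower in 22 of 24 genes (91.7%), against 73.3% of its genes, and on array 2 in 20 of 28 (71.4%), against 60.5%. With measured spots and the GC trend subtracted, the median difference was -0.29 in ribosomal protein genes, against -0.16 in all genes. The downstream part was then lower in 35 of 49 ribosomal protein genes (71.4%), against 62.6% of all genes. By subunit, with all spots, it was lower in 24 of 27 genes of the 60S subunit and in 15 of 20 of the 40S subunit, where array 2 gave 5 of 10. With measured spots and GC subtraction it was lower in 22 of 26 genes of the 60S subunit (84.6%) and in 13 of 20 of the 40S subunit (65.0%), near the 62.6% of all genes. With all spots it was also lower in 41 of 54 genes of the mitochondrial ribosome (median difference -0.51) and in 13 of 16 genes of translation and ribosome assembly (-0.60). With measured spots and GC subtraction, it was lower in 35 of 45 mitochondrial ribosome genes (77.8%, -0.27). For genes of translation and ribosome assembly it was 12 of 13 (92.3%, -0.58). The lower downstream part was thus not particular to the cytosolic set.

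The following genes were chosen after their values were seen, as the ends of this range. In Rpl9, a 60S protein, the 3 probes within 500 bp of the start had a median of 1.47, and the 11 probes downstream had -0.67. In Rpl22, a 60S protein, the values were 1.06 at the start and -0.59 downstream. In Rpl27, a 60S protein, they were 0.30 and -1.16. The opposite order was clearest in Rps27l, with 0.15 at the start and 0.82 downstream, where its highest set lies. Among genes called bound, Rpl28 had 0.53 at the start and -0.68 downstream.

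**Figure D5:**
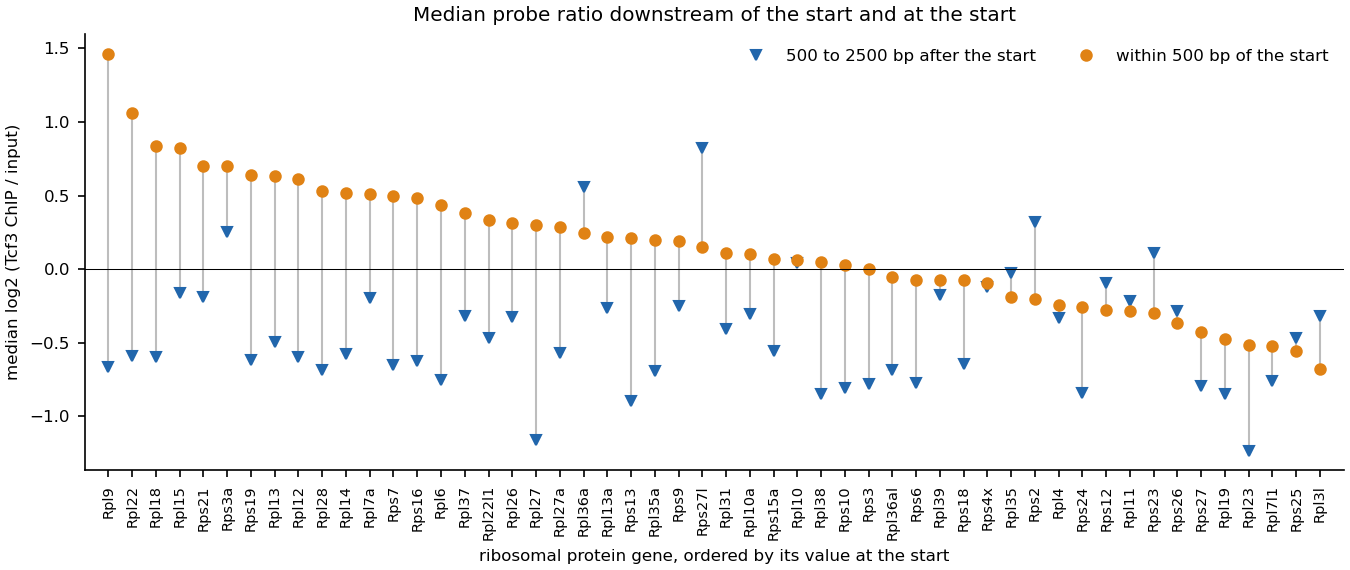
Median log2 of Tcf3 immunoprecipitate over input in the probes 500 to 2500 bp after the start (blue triangles) and within 500 bp of the start (orange circles) for each of 52 ribosomal protein genes, with all spots, ordered by the value at the start. In 42 of the 52 genes the triangle lies under the circle.

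The place of the highest set was scattered. Of 52 genes where it could be placed, it was centred within 500 bp of the start in 21, further upstream in 19 and further downstream in 12. In 7 genes the highest set lay nearer to the placed start of another gene than to its own, and in 3 of these within 500 bp of that other start. Chosen after their values were seen, these 3 were Rpl28 (Tmem238), Rps7 (Colec11, a gene of a collectin) and Rps10 (Gm15420, a predicted gene). The set of Rps10 also lay at its own start, at 56 bp from it, and at -37 bp from that of Gm15420. Those of Rpl28 and Rps7 lay at -3691 and 12975.5 bp from their own starts. The highest set of Rps7 had a mean of 0.82 and that of Rps10 had 0.79, and neither was called with all spots. Distances to a gene's own start were taken from the central probe of the set, and those to another start from the middle of the set. For Rps2, the placed start nearest to the middle of the set was that of Snhg9, at 410 bp. The central probe of that set lay at -252 bp from the start of Rps2, so Rps2 was not counted.

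The DNA around the starts was described from the RefSeq promoter table (GRCm38.p6), which holds 58 of the 77 genes. Starts of 4 genes are shown, from 80 bases before to 20 bases from the start, with the run of C and T letters that touches the start, or the 3 bases on either side of it, in capitals. They are Rpl28, called on a distant probe (chr7:4792885-4792984, plus strand), Rpl38, among the lowest genes (chr11:114668500-114668599, plus strand), Rps6 (chr4:86857348-86857447, minus strand) and Rps19 (chr7:24884512-24884611, plus strand).
Rpl28 start: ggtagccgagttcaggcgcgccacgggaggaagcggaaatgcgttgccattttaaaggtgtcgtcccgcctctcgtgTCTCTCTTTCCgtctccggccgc
Rpl38 start: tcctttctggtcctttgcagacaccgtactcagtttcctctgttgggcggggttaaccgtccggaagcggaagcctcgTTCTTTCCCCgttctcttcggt
Rps6 start: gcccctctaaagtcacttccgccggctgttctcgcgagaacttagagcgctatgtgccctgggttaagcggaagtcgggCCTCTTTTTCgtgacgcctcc
Rps19 start: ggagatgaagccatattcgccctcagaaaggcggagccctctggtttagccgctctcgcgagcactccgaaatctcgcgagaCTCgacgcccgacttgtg

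A run of at least 5 pyrimidines was found at the start of 26 of these 58 promoters (44.8%), against 26.1% of 27025 promoters of all genes and 28.6% of those of mitochondrial ribosomal protein genes. The median run was 4 letters in the 58 promoters and 3 in all promoters. The runs of Rpl28, Rpl38 and Rps6 are 11, 10 and 10 letters long. That of Rps19 is 3 letters, at the start used in this table. The promoters of ribosomal protein genes held a median of 21 CG dinucleotides, as did those of mitochondrial ribosomal protein genes, against 7 in all promoters. At least 1 of the 4 Tcf/Lef cores, on either strand, was found in 4 of 58 (6.90%), against 11.1% of mitochondrial ribosomal protein promoters and 16.9% of all promoters. The 4 genes were Rpl22, Rpl27, Rpl35a and Rps3a, with highest set means of 1.40, 0.93, 0.55 and 1.27 with all spots. None of them was called with all spots, against 9.09% of the 77 genes and 15.4% of all genes. With shares this low, 4 genes are too few to show a difference. In the array probes the cores were about as frequent in ribosomal protein genes as elsewhere, in 96 of 1847 probes (5.20%), against 5.69% of all probes. The median log2 ratio of these 96 probes was -0.35, and that of the 1751 member probes without a core was -0.24. Among all probes it was 0.01 with a core and 0.00 without. The probes of ribosomal protein genes with a core had a median GC content of 38.3%, and those without had 40.7%. Of the 96 probes 1 was called, against 1.38% of all probes with a core, and of the 1751 probes 13 were called, against 1.36% of all probes without one.

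The genes of the mitochondrial ribosome, which translates the transcripts of mitochondrial DNA, are the group most like the cytosolic set. With all spots, the cytosolic set had 7 of 77 genes called and a median highest set mean of 0.86, and the mitochondrial set had 5 of 72 (6.94%) and 0.92, against 15.4% and 1.15 in all genes. The called mitochondrial genes, named because they are few, were Mrpl9 at 1.88, Mrpl45 at 1.85, Mrps31 at 1.60, Mrpl46 at 1.59 and Mrpl53 at 1.57. The median of the probes was -0.24 in the cytosolic set and -0.15 in the mitochondrial one. The median probe lay above 0 in 11 of 77 genes (14.3%) of the cytosolic set and in 20 of 72 (27.8%) of the mitochondrial set.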

How the data were processed

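Chromatin was immunoprecipitated from E14 cells and hybridised against input, per the labels' protocols. The scanner software was Agilent Feature Extraction, version 9.1.1.1, as the headers state. The authors deposited a processed intensity per channel, background-subtracted and dye-normalized, with a surrogate (the floor value) where a signal was not above background, per the file headers. In the deposited files the log10 ratio was Cy5 over Cy3 and matched the ratio of the processed signals within 0.001 in 100% of the spots measured in both channels; it served to check the direction.

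Computed here, in Python 3.11.15 with pandas 2.3.3 and scipy 1.17.1: log2 of processed Cy5 over Cy3, centred on the array median, without control spots and non-uniform spots (9 and 18). The scale of no enrichment, from the values below the median, was 0.72 on array 1 and 0.78 on array 2. Sets joined neighbours within 1000 bp. A call needed an upper-tail normal probability under 0.001 for the set, and in addition either one under 0.001 for the central probe and under 0.1 for a neighbour, or one under 0.005 for at least 2 of its probes. The probabilities are a calling rule, not a test. The GC trend was the median per 2% bin. Normexp used limma 3.58.1 with an offset of 50. Calling was tested on simulated data of independent normal noise with shifts added to some genes. These data held no floor values and no GC trend, so the rate of false calls on the real arrays is not known from them.

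Starts were placed by exact matches of probes to RefSeq promoters (250 bases before to 50 after the start) on the same chromosome; distances are in array coordinates. Named genes are those called under any of the 3 treatments, the 8 highest and 8 lowest, the paralogs and fixed genes. The members, lists and named genes were chosen with earlier results of these data known. Single values of some named genes are not reported here.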

Additional observations from a re-analysis of the deposited data

How the results depend on the processing

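The number of ribosomal protein genes called was 7 with all spots. It was 4 with spots measured in both channels and 36 with normexp, which called 9203 of all genes, against 2611 with the processed signals. It stayed between 6 and 7 with the GC trend subtracted (all or measured spots) and with marked spots or dim input left out. The same range held for set probabilities of 0.0001 and 0.01, neighbours within 500 bp, and the 11 other naming-rule genes counted in. It also held with the scale of set means taken from the set means, an alternative chosen after seeing the data. The share of all genes called moved more, between 11.1% and 17.2% over these settings. With the scale taken from the set means, 7.79% of the ribosomal protein genes were called, against 11.1% of all genes. With the set probability of 0.01 it was 9.09% against 17.2%, and with the GC trend subtracted from all spots 9.09% against 13.0%. The genes behind these counts were not the same throughout. With the GC trend subtracted from all spots, Rpl11 and Rps19 were called, and Rpl18 and Rps27l were not. With dim input left out, Rps27 was called and Rpl18 was not. The median highest set mean, 0.86, was 0.71 with the GC trend subtracted from all spots and 0.71 from measured spots, and -0.23 when each gene was given by its median probe. The median of all member probes, -0.24, was -0.12 for measured spots after GC subtraction and -0.066 with normexp. Where no cause is given, the cause was not tested. No paired analysis was possible because each array was hybridised 1 time and the arrays share no probes. Floor values limit the reading of dim regions, above all on array 2, where Cy5 was well above background at 48.1% of probes.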

Other observations

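For other genes of the translation machinery the calls depended on the spots used. With all spots, 0 of 22 genes of translation factors and ribosome assembly were called (median highest set mean 0.99), against 15.4% of all genes. Array 2 held 16 of the 22, and its share over all genes was 5.51%. Array 1 held 6, and its share was 25.2%. With measured spots 4 were called, against 15.5% of all genes. All 4 came from array 2, whose share over all genes was then 12.4%. These 4, named because they are few, were Ubtf at 1.88, a factor of RNA polymerase I, the elongation factor Eef1a1 at 1.51, and the helicase genes Eif4a1 at 1.43 and Eif4a2 at 1.38.

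Of the 11 genes that match the naming rule and encode no ribosomal protein, 0 were called with all spots, against 15.4% of all genes. Of these 11, 9 lay on array 2, where 5.51% of all genes were called. The other 2 lay on array 1, where it was 25.2%. The gene medians of the 11 centred on -0.15, against -0.23 in the ribosomal protein genes, and 3 of the 11 lay above 0. Rps6ka5, a kinase of histone H3, was called with measured spots at 1.44, and Rps19bp1 at 1.71 when the GC trend was also subtracted. The shares of all genes called under these treatments were 15.5% and 14.8%.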
